A study of Mus musculus with 32 samples.

Results

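This report describes the quadriceps of sick Gne knock-in mice set against the quadriceps of wild-type mice, as 7 of the 32 muscle libraries of the series. The members are the 3 libraries labelled sick, numbered 2, 3 and 4, and the 4 wild-type libraries, numbered 1 to 4, chosen by genotype, phenotype and muscle in the labels. The sick mice carried the M743T substitution on both Gne alleles, and so did a second group of 4 quadriceps libraries from mice labelled healthy, which serves here as a side comparison. Wild-type mice carried no substitution, and all animals were males up to 3 months old. The study sequenced RNA from quadriceps, gastrocnemius and tibialis muscle of the same 3 states. The labels do not say what signs set a sick mouse apart from a healthy one or how many animals gave rise to each library. The knock-in is present in every cell of the animal from conception, so nothing in the design separates an effect in muscle from one that starts in another organ. Nothing states whether a library came from 1 animal or a pool, so each p-value speaks of the spread among libraries, which may be technical.

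GNE is the enzyme that starts the synthesis of sialic acid, the sugar that caps many glycoproteins and glycolipids, and the human counterpart of this substitution causes GNE myopathy, a recessive muscle wasting disease. Skeletal muscle mass follows the balance of protein synthesis and breakdown. Growth signals acting through insulin-like growth factor 1, AKT and the kinase complex mTORC1 favour synthesis, whereas FoxO transcription factors, glucocorticoids and energy or amino acid shortage raise muscle-specific ubiquitin ligases such as MuRF1 (the product of Trim63) and the genes of autophagy.

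The label of skeletal muscle held in all 7 libraries. The skeletal actin gene Acta1 took between 25729 and 51982 CPM (counts per library, brought to 1 shared scaled total), and the fast myosin gene Myh4 had at least 38774 CPM in each. Library totals ran from 8054029 to 17268035 counts in the sick group and from 11547783 to 42588233 counts in the wild-type group. The sick libraries did not form a tight group. On the first principal component of the 11 quadriceps libraries, which held 39.7% of the variance, they scored 96.3, 72.4 and 21.9 (replicates 2, 3 and 4), against -34.7, -30.6, -33.5 and -5.03 in the wild-type libraries. Sick replicate 2 thus lay farthest from wild type and sick replicate 4 nearest. Wild-type replicate 4 stood apart from the other wild-type libraries: it read 10.8% of its counts from the mitochondrial genome, against 7.04% to 7.38% in the other 3. In the sick libraries this share was 4.79% to 6.69%.

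Gne itself did not differ. It had 9.69, 10.1 and 10.9 CPM in sick libraries and 9.2, 9.87, 9.85 and 8.48 CPM in wild-type libraries, with a log2 fold change (sick over wild type, given throughout with its standard error) of 0.11 ± 0.16 and adjusted p = 0.657. The groups overlapped. A single-base substitution need not change a transcript's level, so this gene does not check the genotype labels.

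Across 13799 genes with enough counts to test, 2488 differed between sick and wild-type quadriceps at a limma-voom adjusted p under 0.05 (18.0% of those tested). Of these, 1455 rose (10.5%) and 1033 fell (7.49%). At least a 2-fold difference was fitted for 514 of the genes that rose and 567 of those that fell, and the median log2 fold change over all genes tested was 0.000609. Without any test, 4197 genes (30.4%) had sick values entirely above or entirely below the wild-type values, 2258 above and 1939 below. The shift differed in size among the sick libraries: over the genes that rose, the median log2 deviation from the wild-type mean was 1.04 in sick replicate 2, 0.82 in replicate 3 and 0.43 in replicate 4, and over the genes that fell it was -1.24, -0.99 and -0.57.

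**Figure D1:**
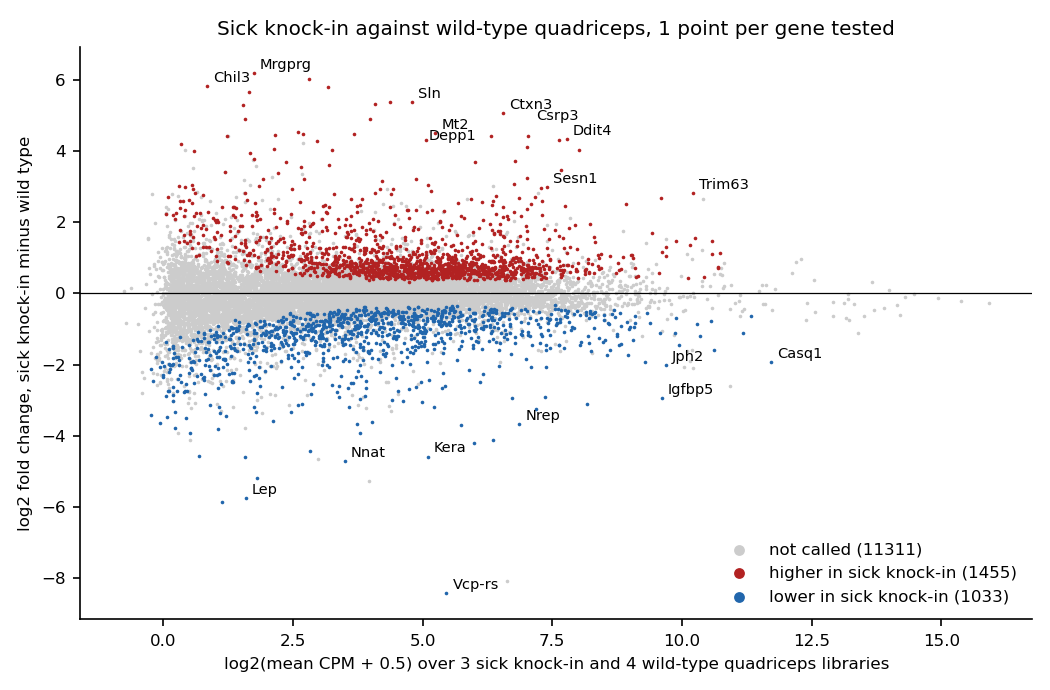
Each point is 1 of the 13799 genes tested, placed by log2 of its mean CPM plus 0.5 over the 7 libraries (horizontal) and its log2 fold change, sick over wild type (vertical), with genes that passed the test in colour and named genes labelled. The 1455 genes that rose and the 1033 that fell lie across most of the range of levels, and none of the genes that passed is among the few with the highest levels.

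The number of genes past the threshold depended on single libraries. Without sick replicate 2 only 81 genes passed, without sick replicate 3 701 did and without sick replicate 4 4219 did. Leaving out a wild-type library gave 852 genes without replicate 1, 1026 without replicate 2, 738 without replicate 3 and 2450 without replicate 4. None of the 2488 genes changed sign in these fits, although they had been selected in the same libraries, so that says little of how stable a direction is. Without sick replicate 2, 2217 of the 2459 that were still tested kept an unadjusted p under 0.05. A core of 73 genes, 46 higher and 27 lower in sick libraries, passed in each of the 11 fits that left out 1 quadriceps library. Every list count given below is from the fit with all libraries, and each should be read beside these numbers. Over all genes tested 10.5% rose and 7.49% fell, and each list count should be read beside those shares as well.

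Gene by gene, the highest fold changes among protein-coding genes whose groups did not overlap belonged to a mixed set. Sln, which encodes sarcolipin, a small inhibitor of the calcium pump of the sarcoplasmic reticulum, had 37.3, 144 and 6.04 CPM in sick libraries, against 0.487, 1.09, 0.449 and 1.24 CPM in wild-type libraries. Its log2 fold change was 5.37 ± 1.44 (adjusted p = 0.0303), and the healthy knock-in libraries ranged from 0.987 to 21.1 CPM. Chrna9, a nicotinic acetylcholine receptor subunit best known from the inner ear, had 46.9, 62.8 and 3.59 CPM in sick libraries, against 0.271, 1.49, 0.548 and 0.0883 CPM in wild-type libraries (log2 fold change 5.32 ± 1.57, adjusted p = 0.0407). Sick replicate 4 was far lower than the other sick libraries for both genes. Ctxn3 (cortexin 3) reached 251, 358 and 24 CPM in sick libraries, against 3.03, 5.97, 2.77 and 4.51 CPM in wild-type libraries, again with replicate 4 the lowest of the sick.

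Further genes of this set act in metabolism, metal binding and defence. Gnmt, the glycine N-methyltransferase that consumes S-adenosylmethionine, had 12.1, 10.5 and 2.94 CPM in sick libraries, against 0.704, 0.115, 0.274 and 1.15 CPM in wild-type libraries (log2 fold change 4.45 ± 0.76, adjusted p = 0.0101). Depp1, a FoxO-responsive gene linked to autophagy, had 253, 229 and 38.1 CPM in sick libraries and 8.88, 3.87, 4.09 and 17 CPM in wild-type libraries (4.43 ± 0.82, adjusted p = 0.0113). Lcn2, which encodes the iron-siderophore binding protein lipocalin 2, had 35, 43.2 and 4.73 CPM in sick libraries, against 0.433, 0.803, 0.997 and 1.33 CPM in wild-type libraries (4.49 ± 1.13, adjusted p = 0.0253). Groups without overlap were a condition for naming these genes, and sick replicate 4 was again the lowest of the sick libraries. The other 3 named for their high fold changes were almost unread in wild type: Mrgprg (205 counts in the 3 sick libraries together, 4 in the 4 wild-type libraries), the macrophage chitinase-like gene Chil3 (145 and 4) and the myeloid lectin gene Clec4d (202 and 9), so their fold changes rest on few wild-type counts.

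The mast cell protease gene Tpsab1 was the most even of the genes with a high fold. It had 5.93, 4.97 and 5.47 CPM in sick libraries, against 0.162, 0.201, 0.0748 and 0.618 CPM in wild-type libraries and 0.117 to 0.316 CPM in healthy knock-in libraries. The sick libraries lay close together and clear of the other groups (log2 fold change 4.91 ± 0.42, adjusted p = 0.0004). The next 5 genes, also known from mast cells, were picked after their values were seen and were not on a list. Hdc, the enzyme that makes histamine, had 2.5, 3.57 and 3.26 CPM in sick libraries, against 0.541, 0.43, 0.524 and 0.972 CPM in wild-type libraries (2.42 ± 0.32, adjusted p = 0.00593). Tpsb2, a second mast cell tryptase that shares much of its sequence with Tpsab1, had a log2 fold change of 1.53 ± 0.39 (adjusted p = 0.0252). The mast cell protease genes Cpa3 (0.59 ± 0.36), Cma1 (0.80 ± 0.45) and Mcpt4 (-0.02 ± 0.57) did not pass. In whole-tissue RNA, more or fewer cells of a type and more or less of its RNA per cell cannot be told apart, here or in any result that follows.

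Among the genes with the lowest fold changes, Lep, which encodes the fat hormone leptin, was read 3 times in the 3 sick libraries together, against 454 times in the 4 wild-type libraries, a ratio of 0.0180 (95% interval 0.00370 to 0.0529, counting error only). The sick CPM were 0, 0 and 0.245 and the wild-type CPM 6.33, 3.79, 4.31 and 2.83. Groups without overlap were a condition for naming genes by low fold change too. The neuronatin gene Nnat, expressed in fat and brain, had 0.544, 0.255 and 1.63 CPM in sick libraries, against 18.9, 21.5, 20.3 and 12.5 CPM in wild-type libraries (log2 fold change -4.72 ± 1.25, adjusted p = 0.0297). Both genes also varied widely among healthy knock-in libraries, from 1.16 to 28.3 CPM for Lep and from 2.61 to 48.5 CPM for Nnat. Kera, the keratocan gene of tendon and cornea matrix, had 0.98, 10.6 and 1.88 CPM in sick libraries and 65.5, 63, 67.6 and 27.3 CPM in wild-type libraries (-4.58 ± 1.24, adjusted p = 0.0313).

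The other genes with the lowest fold changes act in signalling, ion transport and transcription, among other roles. Plcd4, a phospholipase C, had 1.14, 5.36 and 35.8 CPM in sick libraries, against 131, 104, 104 and 61.8 CPM in wild-type libraries (-4.19 ± 0.80, adjusted p = 0.0122). Kcng4, a modifier subunit of potassium channels, had 2.07, 5.49 and 45 CPM in sick libraries, against 169.5, 108, 146 and 97.3 CPM in wild-type libraries (-4.10 ± 0.72, adjusted p = 0.0106). For both, sick replicate 4 lay between the other sick libraries and the wild type without reaching it. Aplnr, the apelin receptor of endothelium, was even across the sick libraries, at 1.47, 1.28 and 1.31 CPM, against 25.1, 26, 30.3 and 8.13 CPM in wild-type libraries (-3.93 ± 0.90, adjusted p = 0.0192). Cited4, a transcriptional co-regulator linked to exercise growth of the heart in mice, had 0.599, 2.81 and 7.43 CPM in sick libraries, against 27.4, 29.2, 21.7 and 21.7 CPM in wild-type libraries (-3.61 ± 0.65, adjusted p = 0.0109). The others by the same rule were Themis3 (-4.59), Gdap1 (-3.67), which acts in mitochondrial fission in nerve, Nrep (-3.66), the prostaglandin E receptor gene Ptger3 (-3.35) and Apln, which encodes apelin, the ligand of the receptor made by Aplnr, at 0.544, 0.255 and 0.49 CPM in sick libraries, against 6.28, 5.34, 4.49 and 3.36 CPM in wild-type libraries (-3.34 ± 0.75, adjusted p = 0.0172).

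**Figure D2:**
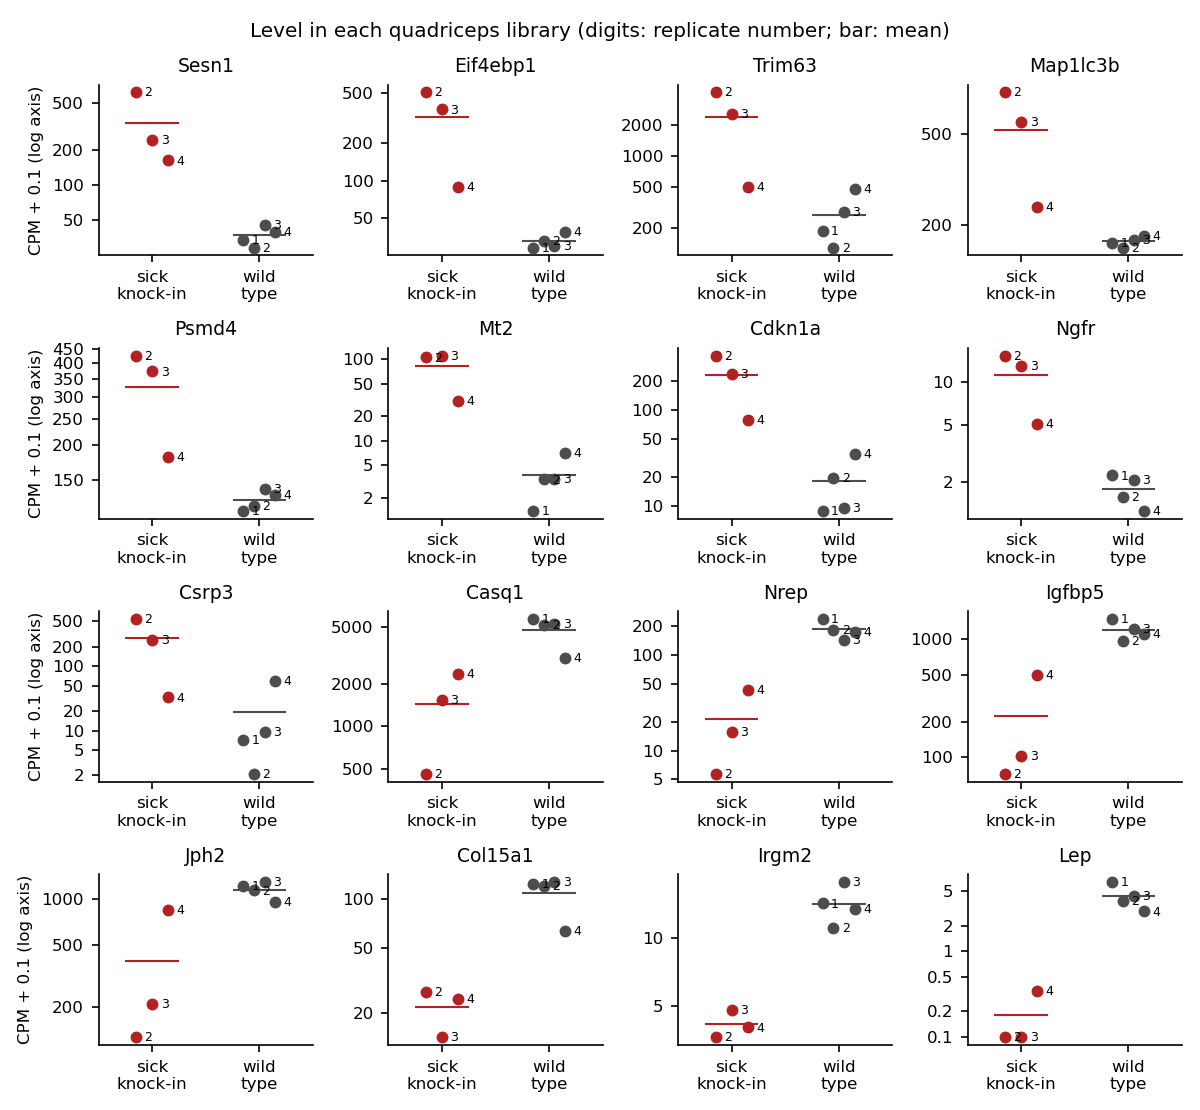
Values of selected genes in each quadriceps library, in CPM plus 0.1 on a log axis, with the 3 sick libraries left of the 4 wild-type libraries; each point is 1 library, its digit the replicate number, and each bar is a mean. Trim63 reaches 4142, 2571 and 501 CPM in the sick libraries, against 187, 129.7, 286 and 477 CPM in the wild-type libraries, and sick replicate 4 is the lowest of the sick for most of the genes that rose.

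The ubiquitin-proteasome system was among the groups with many changed genes. Trim63, the MuRF1 ubiquitin ligase that tags sarcomere proteins for breakdown, had 4142, 2571 and 501 CPM in sick libraries, against 187, 129.7, 286 and 477 CPM in wild-type libraries. The lowest sick library, replicate 4, was only just above the highest wild-type library, replicate 4, and the log2 fold change was 2.83 ± 0.71 (adjusted p = 0.0252). The atrogin-1 ligase gene Fbxo32, which stands beside Trim63 as the best-known atrophy ligase, had 4336, 3038 and 573 CPM in sick libraries and 262, 95.9, 413 and 794 CPM in wild-type libraries, and did not pass (2.65 ± 0.89, adjusted p = 0.0598). In the list of atrophy ligases and regulators, of 27 members tested, 9 rose and 3 fell (median log2 fold change 0.31). Fbxo31, a ligase subunit, had 806, 564 and 219 CPM in sick libraries, against 137, 142, 168 and 174 CPM in wild-type libraries (1.58 ± 0.34, adjusted p = 0.0164). Cblb, a ligase that acts on the insulin receptor substrate in unloaded muscle, had 81.8, 62.1 and 33.9 CPM in sick libraries, against 19.8, 22.4, 21.5 and 17.8 CPM in wild-type libraries (1.44 ± 0.32, adjusted p = 0.0175). Both lay wholly above wild type.

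The promoter of Trim63 is shown because its gene is a well-known marker of muscle atrophy and FoxO factors are known to act on it. RefSeq promoter windows (250 bases before to 50 after a gene's start, build GRCm38.p6) were found for 10330 of the 13799 genes tested, and the FoxO motif GTAAACA, searched on both strands, occurred in 2.16% of their 13239 windows and in 2.37% of those of genes that rose. The Trim63 window holds it once, on the reverse strand (chr4:134314914-134314944, plus strand, motif in capitals).
Trim63: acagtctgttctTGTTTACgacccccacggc

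Of the FoxO factor genes, Foxo3 had 149, 96.9 and 81.3 CPM in sick libraries, against 36.4, 33.9, 46.1 and 45.8 CPM in wild-type libraries, without overlap (1.39 ± 0.25, adjusted p = 0.0106). Klf15, a glucocorticoid-induced regulator of amino acid breakdown, had 287, 156 and 90.2 CPM in sick libraries, against 31.2, 18.7, 41.5 and 64.4 CPM in wild-type libraries (2.19 ± 0.49, adjusted p = 0.0178). The proteasome, which degrades ubiquitin-tagged proteins, was higher across its subunits in sick replicates 2 and 3 and close to wild type in replicate 4. The median log2 deviation of the list from the wild-type mean was 1.15, 0.998 and 0.12 in sick replicates 2, 3 and 4. It was -0.12 to 0.11 in wild-type libraries and -0.20 to 0.18 in healthy knock-in libraries. Of 32 subunit genes tested, 21 rose, none fell and the median log2 fold change was 0.73, beside 10.5% rising and a median of 0.000609 over all genes. Psma7, a subunit of the core, had 244, 241 and 115 CPM in sick libraries, against 71.7, 79.5, 85.5 and 78.5 CPM in wild-type libraries (1.26 ± 0.23, adjusted p = 0.0106). Psmd2, a subunit of the regulatory cap, had 614, 583 and 328 CPM in sick libraries, against 205, 212, 234 and 254 CPM in wild-type libraries (1.11 ± 0.21, adjusted p = 0.0113). Psmd4, the ubiquitin receptor of the cap, had 424, 371 and 181 CPM in sick libraries, against 115, 119.9, 138 and 132 CPM in wild-type libraries (1.28 ± 0.25, adjusted p = 0.0119). For all 3, replicate 4 was the sick library nearest to wild type. The count of subunits that rose was 0 without sick replicate 2, 3 without sick replicate 3, 32 without sick replicate 4, and 7 when sick and wild-type libraries were fitted without the healthy ones. Leaving out wild-type replicates 1, 2 and 3 in turn gave 4, 6 and 6. The median log2 fold change of proteasome subunits was 0.53 without sick replicate 2 and 1.05 without sick replicate 4.

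Autophagy and lysosome genes, which deliver cell contents to acid digestion, moved the same way: of 33 members tested, 13 rose and 0 fell (median log2 fold change 0.39). Map1lc3b, which encodes the membrane-bound LC3 protein of the autophagosome, had 758, 562 and 241 CPM in sick libraries, against 168, 159.8, 173 and 179.7 CPM in wild-type libraries (1.45 ± 0.29, adjusted p = 0.013). Bnip3, a receptor for the removal of mitochondria, had 393, 351 and 109 CPM in sick libraries, against 57.2, 67.6, 77.5 and 80.7 CPM in wild-type libraries (1.81 ± 0.39, adjusted p = 0.0164), and the cargo receptor gene Sqstm1 had 1662, 1644 and 567 CPM in sick libraries, against 404, 472, 509 and 518 CPM in wild-type libraries (1.29 ± 0.31, adjusted p = 0.0216). The groups did not overlap for these genes. Gaa, the lysosomal acid alpha-glucosidase that is missing in Pompe disease, had 789, 549 and 450.4 CPM in sick libraries, against 309, 325, 364 and 280.5 CPM in wild-type libraries (0.87 ± 0.19, adjusted p = 0.0167). Gabarap, an LC3 relative, had a log2 fold change of 0.70 ± 0.17 (adjusted p = 0.0197). The list's count of genes that rose was 0 without sick replicate 2, 17 without sick replicate 4 and 6 without the healthy libraries in the fit. It was 1 without sick replicate 3, and leaving out wild-type replicates 1, 2 and 3 in turn gave 4, 3 and 3. The median log2 fold change of the autophagy and lysosome list was 0.32 without sick replicate 2.

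Promoters of this list held the E-box letters CACGTG, the core of sites for lysosomal regulators of the TFEB family among others, in 32.1% of 28 windows, against 8.18% of the windows of all genes tested, 9.28% of those of genes that rose and 25.6% of 39 windows of translation factor genes. The letters read the same on both strands. Windows around the E-box of 3 members are shown as examples, with the motif in capitals; Bnip3 (chr7:138909597-138909626, minus strand), Gaa (chr11:119267811-119267840, plus strand) and Ctsl (chr13:64370739-64370768, minus strand), which encodes the protease cathepsin L and was picked for its motif after values were seen, had log2 fold changes of 1.81, 0.87 and 1.95.
Bnip3: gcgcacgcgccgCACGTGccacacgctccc
Gaa: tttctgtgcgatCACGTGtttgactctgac
Ctsl: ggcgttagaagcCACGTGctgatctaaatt

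Many genes of the cytosolic ribosome rose. Of 42 cytosolic ribosomal protein genes tested, 35 rose, none fell and all had a positive fold change, with a median log2 fold change of 0.62. The individual changes were small and tight. Rps19 had 58.9, 62.9 and 55.2 CPM in sick libraries, against 32.1, 37, 32.7 and 39.2 CPM in wild-type libraries (0.75 ± 0.14, adjusted p = 0.0106). Rpl12 had 122, 118 and 111 CPM in sick libraries, against 64.6, 75.5, 61.2 and 72.3 CPM in wild-type libraries (0.78 ± 0.14, adjusted p = 0.0109). Here sick replicate 4 lay beside the other sick libraries, unlike in the genes with high folds. Rpl7a, Rps6 and Rpl10a had log2 fold changes of 0.65 ± 0.12, 0.68 ± 0.12 and 0.79 ± 0.15. The number of ribosomal protein genes that rose was 0 without sick replicate 2, 12 without sick replicate 3, 17, 20 and 10 without wild-type replicates 1, 2 and 3, and 21 in a fit over all 32 libraries. The median log2 fold change of cytosolic ribosomal proteins was 0.56 without sick replicate 2. Ribosomal protein genes have many near-identical processed pseudogenes, and counts could be split between them.

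Messenger RNAs of ribosomal proteins begin with a C followed by an unbroken run of C and T, the TOP tract, through which mTORC1 controls their translation. A start with a C and at least 4 further C or T at the annotated first base was found in 13.9% of 36 windows of ribosomal protein genes and in 2.42% of all windows. The first 20 transcribed bases of 3 members are shown with the tract in capitals, for Rps6 (chr4:86857348-86857367, minus strand), Rplp2 (chr7:141447651-141447670, plus strand) and Rpl14 (chr9:120571517-120571536, plus strand), which had log2 fold changes of 0.68, 0.72 and 0.60.
Rps6: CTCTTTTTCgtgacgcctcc
Rplp2: CTTTCgccgccggacgccgc
Rpl14: CTTCTCgctgagcgccgcca

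Translation factors, of 39 tested, gave 20 that rose, none that fell and a median log2 fold change of 0.44. Eif4b, a cofactor of the helicase that opens messenger RNA for scanning, had 472, 427 and 435 CPM in sick libraries, against 246, 260.1, 286 and 289.6 CPM in wild-type libraries (0.72 ± 0.12, adjusted p = 0.0101). Eif1, which guards start codon choice, had 860.2, 728 and 673 CPM in sick libraries, against 299, 322, 353 and 459 CPM in wild-type libraries (1.07 ± 0.21, adjusted p = 0.0122). Eef2, the elongation factor that moves the ribosome along, had 2182, 1890.1 and 2295 CPM in sick libraries, against 1210.2, 1239.9, 1251 and 1482 CPM in wild-type libraries (0.70 ± 0.19, adjusted p = 0.0284). None of these overlapped with wild type. In the nucleolus, where ribosomes are assembled, of 29 members tested, 14 rose and 0 fell (median log2 fold change 0.60). Npm1 (nucleophosmin) had 157, 147 and 92.3 CPM in sick libraries, against 62.1, 67.8, 70.8 and 66.4 CPM in wild-type libraries (0.95 ± 0.18, adjusted p = 0.0117). Wdr43, a component of the small subunit processome, passed in every fit that left out a library (0.90 ± 0.17, adjusted p = 0.0109). The aminoacyl-tRNA synthetases, which load amino acids onto transfer RNAs, followed to a lesser degree: of 20 members tested, 5 rose and 0 fell (median log2 fold change 0.28). Vars, the valine enzyme, had 105, 91.2 and 69.6 CPM in sick libraries, against 41.5, 40.2, 45.4 and 46.8 CPM in wild-type libraries (1.01 ± 0.17, adjusted p = 0.0101). The mitochondrial ribosome did not share in this: of 34 members tested, 1 rose and 1 fell (median log2 fold change -0.02). Without sick replicate 2, 1 nucleolar gene (Wdr43) and no translation factor or synthetase passed.

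**Figure D3:**
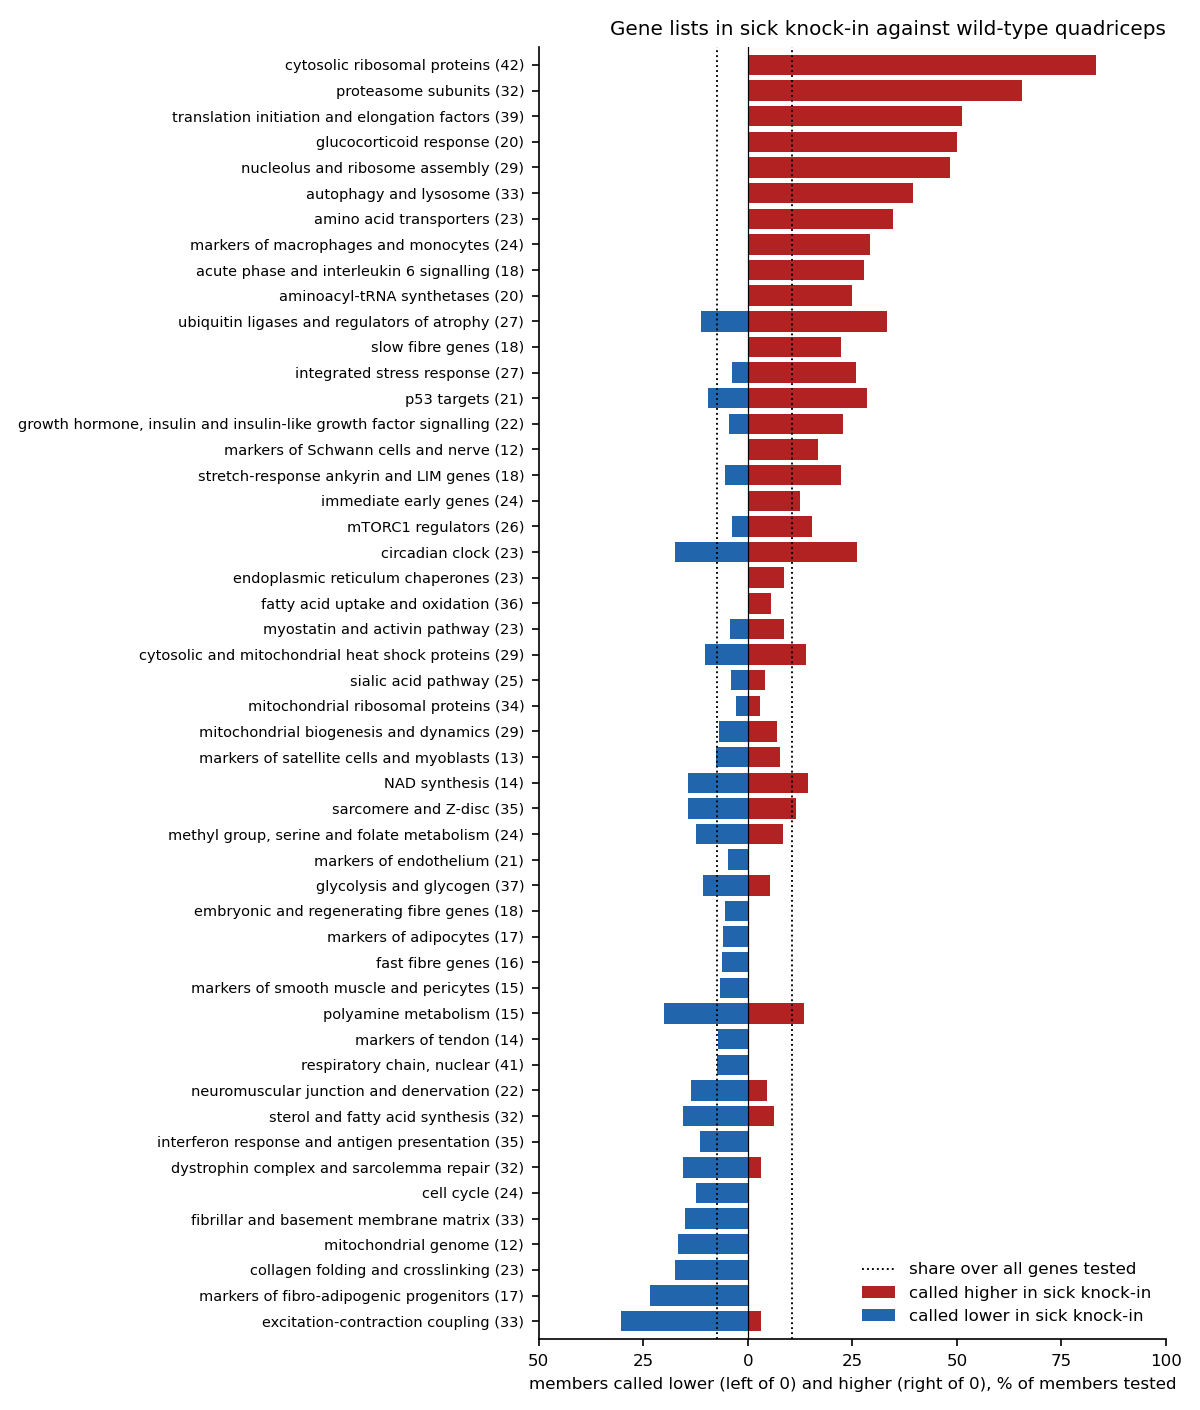
Percent of the tested genes of each list that rose (right of 0) or fell (left of 0) in sick quadriceps at an adjusted p under 0.05, with the number tested in brackets and the shares over all genes as dotted lines. Ribosomal protein, proteasome, translation factor, nucleolar and autophagy genes have 35, 21, 20, 14 and 13 genes that rose, the highest counts among the lists, and excitation-contraction coupling has 10 that fell, the highest count in that direction. By the percent drawn, the glucocorticoid list, at 50%, stands above the nucleolar (48.3%) and autophagy (39.4%) lists.

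**Figure D4:**
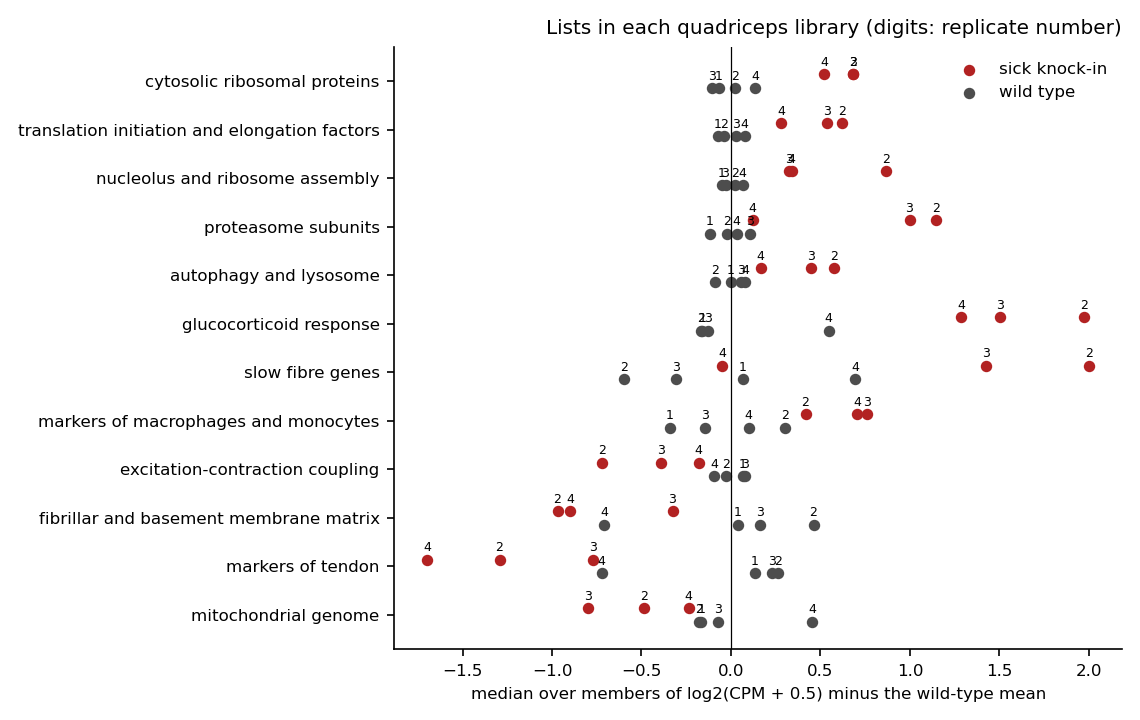
Median log2 deviation of each list from the wild-type mean in each quadriceps library, with sick libraries first. For the proteasome list sick replicate 4 lies nearest to wild type, while the ribosomal protein list is more even across the sick libraries.

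Genes known to respond to glucocorticoids, the adrenal hormones of stress and fasting, were the list with the highest median: of 20 members tested, 10 rose and 0 fell (median log2 fold change 1.73). Cebpd, a transcription factor of that response and of inflammation, had 342, 269 and 182 CPM in sick libraries, against 14.2, 10.9, 6.81 and 75.5 CPM in wild-type libraries (4.12 ± 0.68, adjusted p = 0.0101). Cdkn1a, the cell cycle inhibitor p21, had 375, 241 and 78.5 CPM in sick libraries, against 8.71, 19.2, 9.25 and 34.5 CPM in wild-type libraries (3.73 ± 0.60, adjusted p = 0.0101). Nfkbia, the inhibitor of NF-kappaB, had a log2 fold change of 1.88 ± 0.31 (adjusted p = 0.0101). The groups did not overlap, and wild-type replicate 4 was the highest wild-type library for all 3 genes. Tsc22d3, the gene of the glucocorticoid-induced leucine zipper and a standard marker of the hormone, picked after its value was seen, had 879, 711 and 643 CPM in sick libraries and 313, 315, 305 and 474 CPM in wild-type libraries (1.08 ± 0.24, adjusted p = 0.0172). The list counted 1 gene that rose without sick replicate 2 and 13 without the healthy libraries in the fit. It was 5 without sick replicate 3, and leaving out wild-type replicates 1, 2 and 3 in turn gave 5, 7 and 6. The median log2 fold change of the glucocorticoid response list was 1.53 without sick replicate 2. Healthy knock-in replicate 4 also stood above wild type: the median log2 deviation of the list from the wild-type mean was between 1.29 and 1.97 in sick libraries and 1.29 in that healthy library, against -0.34 to -0.17 in the other healthy libraries and -0.17 to 0.55 in wild-type libraries.

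The metallothionein gene Mt2, which binds zinc and is induced by metals and by glucocorticoids, had 104, 110.3 and 30.7 CPM in sick libraries, against 1.3, 3.27, 3.37 and 7.07 CPM in wild-type libraries and 2.12 to 94.5 CPM in healthy knock-in libraries. All sick values lay above all wild-type values, as naming by fold change required (4.51 ± 0.93, adjusted p = 0.0146), but 1 or more healthy knock-in libraries reached the sick range. Its neighbour Mt1, picked after its value was seen, had a log2 fold change of 4.32 ± 1.08 (adjusted p = 0.0252). The Mt2 promoter is shown for its cluster of metal response elements, TGCNCNC on either strand: it holds 5 matches, a number reached or passed in 67 of 13239 windows (0.506%), while 52.7% of all windows hold at least 1 (chr8:94172387-94172582, plus strand, matches in capitals).
Mt2: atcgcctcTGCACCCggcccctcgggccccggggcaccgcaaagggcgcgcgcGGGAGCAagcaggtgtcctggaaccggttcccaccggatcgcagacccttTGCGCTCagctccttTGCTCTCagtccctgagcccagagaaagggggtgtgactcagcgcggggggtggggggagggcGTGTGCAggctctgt

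Inhibitors of growth signalling were among the genes that rose. Among mTORC1 regulators, of 26 members tested, 4 rose and 1 fell (median log2 fold change 0.10). These are shares of 15.4% and 3.85%, beside 10.5% and 7.49% over all genes, so the list as a whole showed little shift. Ddit4 (REDD1), a stress-induced inhibitor of mTORC1, had 539, 304 and 482 CPM in sick libraries, against 23.4, 12.4, 6.68 and 166 CPM in wild-type libraries (4.34 ± 1.06, adjusted p = 0.0234). The sick libraries were all above wild type, but wild-type replicate 4 stood far above the other 3 wild-type libraries. Sesn1, a leucine-sensing brake on mTORC1, had 624, 242 and 163 CPM in sick libraries, against 33.8, 29, 45.6 and 39.3 CPM in wild-type libraries (2.98 ± 0.42, adjusted p = 0.00593), whereas its relative Sesn3 was lower, at 18.2, 24.2 and 17.5 CPM in sick libraries, against 46.7, 32.2, 39.7 and 27.3 CPM in wild-type libraries (-0.89 ± 0.26, adjusted p = 0.0364). Eif4ebp1, the translation repressor that mTORC1 switches off, had 505, 368 and 88.8 CPM in sick libraries, against 29.2, 32.9, 30 and 39 CPM in wild-type libraries (2.97 ± 0.51, adjusted p = 0.0101). The kinase gene Mtor itself also rose (0.88 ± 0.26, adjusted p = 0.0377).

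Of growth hormone, insulin and insulin-like growth factor genes, 5 of 22 rose and 1 fell. The binding proteins moved apart: Igfbp3, the main carrier of the growth factor in blood, had 432, 273 and 96.9 CPM in sick libraries, against 31.2, 24.4, 24.7 and 14.6 CPM in wild-type libraries (3.26 ± 0.58, adjusted p = 0.0109), whereas Igfbp5, the main binding protein made by muscle fibres, had 72, 102 and 499.7 CPM in sick libraries, against 1498, 965, 1220.4 and 1108 CPM in wild-type libraries (-2.93 ± 0.56, adjusted p = 0.0122). Neither overlapped with wild type. The signalling genes Akt1 (1.09 ± 0.18), Pik3r1 (1.28 ± 0.22), the regulatory subunit of phosphoinositide 3-kinase, and Igf1r (1.40 ± 0.30), the receptor, rose. In the myostatin and activin pathway, which restrains muscle growth, of 23 members tested, 2 rose and 1 fell (median log2 fold change -0.09). Gdf11, a close relative of myostatin, had 1.31, 2.55 and 3.75 CPM in sick libraries, against 17.5, 18.9, 16.4 and 7.86 CPM in wild-type libraries (-2.78 ± 0.59, adjusted p = 0.0151). Smad4, the shared mediator of the pathway, had 108, 85 and 80.2 CPM in sick libraries, against 57.4, 54.4, 54.5 and 59.5 CPM in wild-type libraries (0.68 ± 0.12, adjusted p = 0.0101).

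Genes of the integrated stress response, which is switched on by amino acid lack and misfolded proteins, were mixed: of 27 members tested, 7 rose and 1 fell (median log2 fold change 0.22). Atf4, its central transcription factor, had 600.2, 306 and 245 CPM in sick libraries, against 128, 129.9, 148 and 194 CPM in wild-type libraries (1.24 ± 0.27, adjusted p = 0.0165). Stc2, a secreted glycoprotein induced by that factor, had 30.4, 17.6 and 63.8 CPM in sick libraries, against 3.25, 3.53, 4.56 and 3.09 CPM in wild-type libraries (3.17 ± 0.45, adjusted p = 0.00593), with replicate 4 the highest of the sick libraries here. The proline synthesis gene Pycr1, usually a target of the same response, was lower, at 1.69, 1.28 and 4.16 CPM in sick libraries, against 6.44, 9.01, 6.93 and 5.83 CPM in wild-type libraries (-1.73 ± 0.40, adjusted p = 0.0187). The amino acid transporter list had calls in 1 direction only: of 23 members tested, 8 rose and 0 fell (median log2 fold change 0.33). A positive fold change was found for 17 of the 23. The share that rose was 34.8%, beside 10.5% over all genes. Slc43a1, which carries branched-chain and aromatic amino acids, had 123, 82 and 81.4 CPM in sick libraries, against 26.9, 14.1, 30.6 and 15.1 CPM in wild-type libraries (2.17 ± 0.30, adjusted p = 0.00593). Slc7a2, a carrier of arginine and lysine, had 498, 214 and 245 CPM in sick libraries, against 102, 89.3, 97.8 and 58.3 CPM in wild-type libraries (1.79 ± 0.29, adjusted p = 0.0101). Both genes passed in every fit that left out a library, and healthy knock-in libraries did not reach their sick range, with 13.4 to 25.3 CPM and 48 to 74.1 CPM. The list as a whole did reach it in healthy knock-in replicate 4, which summed to 1337 CPM, against 1163 to 1773 CPM in sick libraries. Its median log2 deviation from the wild-type mean was 0.38, against 0.41 to 0.59 in sick libraries and -0.15 to 0.12 in the other healthy libraries.

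For p53 targets, of 21 members tested, 6 rose and 2 fell (median log2 fold change 0.52). The shares were 28.6% and 9.52%, beside 10.5% and 7.49% over all genes. Trp53inp1, which promotes cell death and autophagy, had 243, 149 and 70.6 CPM in sick libraries, against 22.5, 24.3, 20.6 and 33.4 CPM in wild-type libraries (2.48 ± 0.45, adjusted p = 0.0113), while Ccng1 (cyclin G1) had 550.1, 804 and 1268 CPM in sick libraries, against 1644, 1642, 1589 and 1212 CPM in wild-type libraries (-0.85 ± 0.25, adjusted p = 0.0355) and its groups overlapped. For acute phase and interleukin 6 genes, of 18 members tested, 5 rose and 0 fell (median log2 fold change 0.86). Healthy knock-in replicate 4 reached the sick range for this list. Its median log2 deviation from the wild-type mean was 1.32, against 1.56, 0.86 and 0.33 in sick libraries. The other healthy libraries had -0.23 to 0.05 and the wild-type libraries -0.38 to 0.14. Il6ra, the interleukin 6 receptor, had 226, 134 and 45.5 CPM in sick libraries, against 6.17, 8.52, 7.48 and 17 CPM in wild-type libraries (3.69 ± 0.60, adjusted p = 0.0101). Serpina3n, an acute phase protease inhibitor, had 126, 166 and 56.7 CPM in sick libraries, against 7.41, 31.9, 14.4 and 23.1 CPM in wild-type libraries (2.65 ± 0.71, adjusted p = 0.0308). Neither overlapped with wild type. Of 24 immediate early genes, 3 rose (12.5%, beside 10.5% over all genes). In all, 22 of them had a positive fold change, with a median log2 fold change of 0.92. The median log2 deviation of the list from the wild-type mean overlapped between states. It was 0.49 to 1.32 in sick, -0.54 to 0.80 in healthy knock-in and -0.41 to 0.52 in wild-type libraries. Zfp36, which speeds the decay of cytokine messages, had 73.7, 30.7 and 50.4 CPM in sick libraries, against 8.33, 9.58, 7.13 and 22 CPM in wild-type libraries (2.34 ± 0.44, adjusted p = 0.0115). Heat shock proteins gave 4 genes that rose and 3 that fell of 29. Hspb7, a small heat shock protein of striated muscle, had 2373, 2037 and 272 CPM in sick libraries, against 117, 104, 179.7 and 354 CPM in wild-type libraries (2.69 ± 0.76, adjusted p = 0.0354), with sick replicate 4 inside the wild-type range. Endoplasmic reticulum chaperones were mostly without a call: of 23 members tested, 2 rose and 0 fell (median log2 fold change -0.14).

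Clock genes shifted in both directions. Of 23 tested, 6 rose (26.1%) and 4 fell (17.4%), beside 10.5% and 7.49% over all genes. Rora, a nuclear receptor that activates the clock gene Bmal1, had 389, 244 and 149 CPM in sick libraries, against 89, 113, 99.9 and 99.9 CPM in wild-type libraries (1.27 ± 0.25, adjusted p = 0.0125). Bhlhe41, a repressor of clock genes, had 4.14, 8.42 and 24.7 CPM in sick libraries, against 75.2, 43.3, 49.4 and 35.4 CPM in wild-type libraries (-2.45 ± 0.57, adjusted p = 0.0199). Neither Rora nor Bhlhe41 overlapped between the groups. The labels do not give the hour at which tissue was taken.

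In the contractile apparatus, the calcium handling genes of excitation-contraction coupling were lower: of 33 members tested, 1 rose and 10 fell (median log2 fold change -0.43). Over all genes tested, 7.49% fell. Casq1, the calcium store protein of fast fibres, had 462, 1537 and 2330.3 CPM in sick libraries, against 5733, 5164, 5297 and 3025 CPM in wild-type libraries (-1.93 ± 0.49, adjusted p = 0.0266). Jph2, which ties the sarcoplasmic reticulum to the cell membrane, had 127, 208 and 845 CPM in sick libraries, against 1218, 1136, 1287 and 960.4 CPM in wild-type libraries (-2.0 ± 0.51, adjusted p = 0.0258). Stac3, a partner of the voltage sensor, had 64.7, 91.1 and 153 CPM in sick libraries, against 294, 252, 333 and 201 CPM in wild-type libraries (-1.44 ± 0.28, adjusted p = 0.0117). Sick libraries were below wild type in each, with replicate 2 the lowest and replicate 4 the nearest to wild type. Sypl2, another triad membrane protein, Hrc, a calcium binding protein of the store, and Clcn1, the chloride channel that keeps fibres quiet after firing, had log2 fold changes of -1.91 ± 0.49, -0.68 ± 0.17 and -1.19 ± 0.27. The count of genes that fell was 0 without sick replicate 2, 3 without sick replicate 3 and 17 without sick replicate 4. Leaving out wild-type replicates 1, 2 and 3 in turn gave 1, 3 and 1. The median log2 fold change of the excitation-contraction coupling list was -0.35 without sick replicate 2.

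Genes of the slow fibre type spread widely among the sick libraries. Of 18 tested, 4 rose and none fell, with a median log2 fold change of 1.53. Tnnt1, the slow troponin T, had 21, 11.7 and 2.37 CPM in sick libraries, against 3.03, 0.803, 0.299 and 3.45 CPM in wild-type libraries (3.23 ± 0.95, adjusted p = 0.041). Tnnc1, the slow troponin C, had 12.9, 3.44 and 0.816 CPM in sick libraries, against 1.08, 0.115, 0.0997 and 1.59 CPM in wild-type libraries (3.77 ± 1.19, adjusted p = 0.0498). For both, sick replicate 4 lay within the wild-type range. No slow fibre gene passed when sick and wild-type libraries were fitted alone. Fast fibre genes had 0 that rose and 1 (Casq1) that fell of 16.

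Stretch-response genes, which are induced by load and by denervation, included some of the steepest changes of the fibre: of 18 members tested, 4 rose and 1 fell (median log2 fold change 0.37). Ankrd1, an ankyrin repeat protein that sits on titin and moves to the nucleus, had 86.3, 84.3 and 36.5 CPM in sick libraries, against 6.71, 10.2, 9.12 and 3.89 CPM in wild-type libraries (3.05 ± 0.38, adjusted p = 0.00563), and passed in every fit that left out a library. Csrp3, the muscle LIM protein, had 547, 254 and 32.6 CPM in sick libraries, against 7.14, 2.01, 9.37 and 59.1 CPM in wild-type libraries (4.42 ± 1.06, adjusted p = 0.0223). Ankrd2 had 822, 424 and 36.6 CPM in sick libraries, against 12.3, 8.15, 31.4 and 79.8 CPM in wild-type libraries (3.47 ± 1.0, adjusted p = 0.0384). Sick replicate 4 overlapped with wild-type replicate 4 for Csrp3 and Ankrd2 but not for Ankrd1. Ankrd23, from the same family, was lower at 104, 99 and 102 CPM in sick libraries, against 254, 201, 265 and 206 CPM in wild-type libraries (-1.17 ± 0.22, adjusted p = 0.0113).

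Structural genes moved both ways. Of 35 sarcomere and Z-disc genes, 4 rose (11.4%) and 5 fell (14.3%), beside 10.5% and 7.49% over all genes tested. Nrap, a scaffold of forming myofibrils, had 3293, 2506 and 1674 CPM in sick libraries, against 1033, 911, 1010.1 and 1428 CPM in wild-type libraries (1.13 ± 0.31, adjusted p = 0.0322). Flnc (filamin C), which mends damaged Z-discs, had 3464, 2700.4 and 1200.1 CPM in sick libraries, against 638, 744, 620.0 and 1286 CPM in wild-type libraries (1.49 ± 0.37, adjusted p = 0.0246). Sick replicate 4 overlapped with wild type for Flnc and not for Nrap. Xirp2, an actin-binding repeat protein, was lower at 1366, 1041 and 1836 CPM in sick libraries, against 3011, 3372, 3149 and 2399 CPM in wild-type libraries (-1.10 ± 0.20, adjusted p = 0.0104). Myoz3, a calcineurin-binding protein of fast fibres, had 3.7, 11 and 27.6 CPM in sick libraries, against 64.7, 65.6, 74.1 and 41.5 CPM in wild-type libraries (-2.65 ± 0.50, adjusted p = 0.0113). In the dystrophin complex and membrane repair list, of 32 members tested, 1 rose and 5 fell (median log2 fold change -0.11). Sgcd, the delta-sarcoglycan gene, had 13.6, 13.9 and 14.2 CPM in sick libraries, against 32.1, 31.5, 28.3 and 21.6 CPM in wild-type libraries (-1.03 ± 0.20, adjusted p = 0.0114). Capn3, the muscle calpain missing in a limb-girdle dystrophy, had 95.8, 108 and 174 CPM in sick libraries, against 207, 182, 243 and 201 CPM in wild-type libraries (-0.76 ± 0.20, adjusted p = 0.0284).

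At the neuromuscular junction, of 22 members tested, 1 rose and 3 fell (median log2 fold change -0.05). Ache, the acetylcholinesterase gene, had 5.77, 13.3 and 29.3 CPM in sick libraries, against 32.4, 37, 42.9 and 37 CPM in wild-type libraries (-1.59 ± 0.39, adjusted p = 0.0232). The receptor subunit gene Chrna1 had 30.2, 39.5 and 25.3 CPM in sick libraries, against 12.8, 16.4, 16.7 and 18 CPM in wild-type libraries (0.96 ± 0.27, adjusted p = 0.0328), whereas the adult subunit gene Chrne had 3.92, 6.51 and 8.81 CPM in sick libraries, against 8.93, 9.99, 13.1 and 11.7 CPM in wild-type libraries (-0.90 ± 0.25, adjusted p = 0.0332). None of the 3 overlapped between the groups. Embryonic and regenerating fibre genes, which mark new fibres, had 1 call of 18 (Nnat, lower), and of 13 satellite cell markers Pax7, the stem cell factor, fell to 1.31, 1.02 and 1.31 CPM in sick libraries, against 4.22, 3.19, 3.66 and 2.47 CPM in wild-type libraries (-1.43 ± 0.42, adjusted p = 0.0378), while Cdh15 rose (0.68 ± 0.21, adjusted p = 0.0433). Ngfr, the low-affinity neurotrophin receptor found on Schwann cells of denervated nerve, had 15.3, 13 and 4.98 CPM in sick libraries, against 2.11, 1.46, 1.94 and 1.15 CPM in wild-type libraries (2.58 ± 0.39, adjusted p = 0.00665), without overlap, and Erbb3, also of Schwann cells, had a log2 fold change of 1.06 ± 0.33 (adjusted p = 0.0475). Summed over the Schwann cell and nerve list, however, levels were between 119.5 and 192 CPM in sick libraries and between 118 and 151 CPM in wild-type libraries.

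Energy metabolism was touched in parts. Of 37 genes of glycolysis and glycogen, 2 rose and 4 fell. Pgam2, the muscle phosphoglycerate mutase, had 371, 604 and 1469 CPM in sick libraries, against 1971, 2382, 2589 and 1667 CPM in wild-type libraries (-1.59 ± 0.38, adjusted p = 0.0212). Tpi1, triose phosphate isomerase, had 729.8, 1085 and 1498 CPM in sick libraries, against 1677, 1880.3, 2019 and 1735 CPM in wild-type libraries (-0.77 ± 0.20, adjusted p = 0.0283). In the other direction, Fbp2, the muscle fructose bisphosphatase that runs the pathway backwards, had 33.5, 67.4 and 34.3 CPM in sick libraries, against 14.6, 27.9, 14.9 and 13.2 CPM in wild-type libraries (1.26 ± 0.30, adjusted p = 0.0197). All 3 genes separated the groups. Ak1, the adenylate kinase of fast muscle, and Pgm1, phosphoglucomutase, both among the most read genes that fell, had log2 fold changes of -1.19 ± 0.31 and -1.45 ± 0.46.

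Mitochondrial transcripts were mostly without a call, but those of the mitochondrial genome were lower in sick libraries as a set. Of 12 mitochondrial genome genes tested, 2 fell, none had a positive fold change and the median log2 fold change was -0.54. Summed over the list, levels were between 49214 and 70038 CPM in sick libraries and between 73125 and 110442 CPM in wild-type libraries, without overlap. Healthy knock-in libraries ran from 66838 to 120095 CPM. For mt-Nd6, the gene encoded on the light strand, whose counts may include reads of the opposite strand since the counting is not stated to use strand, sick libraries had 1861, 1689.7 and 2335 CPM, against 2695, 3169, 2787 and 3467 CPM in wild-type libraries (-0.64 ± 0.16, adjusted p = 0.0232). Of 41 nuclear respiratory chain genes, 3 fell (Ndufab1 -0.67 ± 0.12, Cycs -0.68 ± 0.13 and Ndufs1 -0.68 ± 0.14). Nrf1, a transcription factor for respiratory genes, had 27.3, 16.7 and 15 CPM in sick libraries, against 9.36, 11.5, 9.82 and 11.6 CPM in wild-type libraries (0.90 ± 0.19, adjusted p = 0.0151). Dnm1l, which divides mitochondria, had 55.5, 55.6 and 68.3 CPM in sick libraries, against 86.4, 91.6, 91.9 and 91.5 CPM in wild-type libraries (-0.60 ± 0.11, adjusted p = 0.011). Both separated the groups, in opposite directions. Fatty acid genes gave 2 that rose, Eci2 (0.88 ± 0.21) and Acot2 (1.24 ± 0.37), of 36. In sterol and fatty acid synthesis, of 32 members tested, 2 rose and 5 fell (median log2 fold change -0.31), with Fdft1, squalene synthase, at 182, 145 and 83.9 CPM in sick libraries and 36.2, 29.6, 36.8 and 66.1 CPM in wild-type libraries (1.71 ± 0.34, adjusted p = 0.0126) against the run of Sc5d (-1.15 ± 0.20), Hmgcs1 (-0.61 ± 0.15), Dhcr7 (-1.23 ± 0.32) and Idi1 (-1.06 ± 0.30).

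Small-molecule pathways showed single strong genes rather than shifts of the list. In polyamine metabolism, of 15 members tested, 2 rose and 3 fell (median log2 fold change -0.18). Amd1, the decarboxylase that feeds polyamine synthesis, had 10.3, 9.57 and 118 CPM in sick libraries, against 182, 246, 215 and 239 CPM in wild-type libraries (-3.25 ± 0.71, adjusted p = 0.0169), with sick replicate 4 far above the other sick libraries but below all wild-type libraries. Amd2 is a near-identical copy, at 0.0544, 0.128 and 1.47 CPM in sick libraries and 1.08, 2.47, 2.09 and 1.5 CPM in wild-type libraries, and reads may be split between them. Paox, which breaks polyamines down, had 14, 10.6 and 5.39 CPM in sick libraries, against 3.19, 2.41, 2.87 and 2.39 CPM in wild-type libraries (1.81 ± 0.31, adjusted p = 0.0101). In methyl group, serine and folate metabolism, of 24 members tested, 2 rose and 3 fell (median log2 fold change 0.02), with Gnmt and Ahcy (0.96 ± 0.25) higher and Mat2a (-0.95 ± 0.21), which makes S-adenosylmethionine, and the creatine synthesis gene Gamt (-2.76 ± 0.75) among those lower. In NAD synthesis and use, Sirt1 (0.89 ± 0.22) and Nadk2 (0.51 ± 0.15) rose and Sirt3 (-0.64 ± 0.17) and Nmnat1 (-0.55 ± 0.16) fell, of 14 tested. The iron store gene Fth1 was among the most read genes that rose, at 1641, 1632 and 1649 CPM in sick libraries, against 1149.9, 1144, 1253 and 1218 CPM in wild-type libraries (0.46 ± 0.13, adjusted p = 0.0322).

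The other genes named for being read most often were Myot (myotilin), Ybx3 (a cold shock protein that binds messenger RNA) and Tacc2 (a coiled-coil protein). They had log2 fold changes of 0.75 ± 0.21, 1.10 ± 0.22 and 1.54 ± 0.25, and Tacc2 separated the groups with 2488, 2173 and 1241 CPM in sick libraries, against 632, 650.0, 715 and 600.2 CPM in wild-type libraries.

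The sialic acid pathway, in which GNE acts, had few calls: of 25 members tested, 1 rose and 1 fell (median log2 fold change -0.17). Neu1, the lysosomal sialidase that removes sialic acid, had 31.2, 24.1 and 21.5 CPM in sick libraries, against 15.5, 15.7, 17.7 and 20.3 CPM in wild-type libraries (0.59 ± 0.15, adjusted p = 0.0256). St3gal2, which adds it, had 40.7, 63.4 and 80.4 CPM in sick libraries, against 92.9, 91.4, 88.5 and 104 CPM in wild-type libraries (-0.68 ± 0.21, adjusted p = 0.0443).

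Extracellular matrix genes were lower where they passed. Of 33 matrix genes, none rose and 5 fell (median log2 fold change -0.64), and of 23 collagen folding and crosslinking genes none rose and 4 fell. The shares that fell were 15.2% and 17.4%, beside 7.49% over all genes. Matrix genes summed to between 4108 and 6127 CPM in sick libraries and between 5440 and 14899 CPM in wild-type libraries. Wild-type replicate 4, at 5440 CPM, lay inside the sick range, and healthy knock-in libraries ran from 4434 to 21891 CPM. Col15a1, a basement membrane collagen that is also a marker of fibro-adipogenic progenitors, had 26.6, 14 and 24.2 CPM in sick libraries, against 123, 119, 126 and 63.5 CPM in wild-type libraries (-2.25 ± 0.41, adjusted p = 0.0109). Col6a2, a chain of the collagen that is altered in Ullrich muscular dystrophy, had 58.4, 88.4 and 94.5 CPM in sick libraries, against 245, 327, 268 and 138 CPM in wild-type libraries (-1.54 ± 0.42, adjusted p = 0.0311). P4ha1, a proline hydroxylase of collagen, had 24, 27.2 and 39.2 CPM in sick libraries, against 61, 63.9, 66.3 and 151 CPM in wild-type libraries (-1.44 ± 0.30, adjusted p = 0.015). For these genes the groups did not overlap. Wild-type replicate 4 was the lowest wild-type library for both collagens. When sick and wild-type libraries were fitted alone, 14 matrix genes fell. Of 14 tendon markers 1 fell in the fit with all libraries (median log2 fold change -1.31) and 8 when sick and wild-type libraries were fitted alone.

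Marker lists of other cells in the tissue were read beside these. For fibro-adipogenic progenitors, of 17 members tested, 0 rose and 4 fell (median log2 fold change 0.01), with Lum (lumican) at 10.3, 25.4 and 25.5 CPM in sick libraries, against 57.1, 67.1, 62.1 and 43.6 CPM in wild-type libraries (-1.67 ± 0.36, adjusted p = 0.0164), but the summed level of the list was between 3368 and 4262 CPM in sick libraries and between 3293 and 3805 CPM in wild-type libraries. For macrophages and monocytes, of 24 members tested, 7 rose and 0 fell (median log2 fold change 0.76), and the summed level was between 651 and 757 CPM in sick libraries and between 284 and 601 CPM in wild-type libraries, not overlapping. Healthy knock-in libraries summed to between 453 and 692 CPM, reaching the sick range, and had a median log2 fold change over wild type of 0.56. In gastrocnemius and tibialis 0 of these markers rose (medians 0.02 and -0.54). Cd163, a scavenger receptor of resident macrophages, had 64.4, 85.3 and 59.8 CPM in sick libraries, against 18.7, 38.5, 28.8 and 26.7 CPM in wild-type libraries (1.32 ± 0.33, adjusted p = 0.0238). C1qa, a complement subunit gene, had 30.5, 35.6 and 38.4 CPM in sick libraries, against 16.5, 22.9, 15.8 and 20.1 CPM in wild-type libraries (0.89 ± 0.21, adjusted p = 0.0197). No macrophage marker passed in the fit over all 32 libraries. Tendon markers summed to between 242 and 1009.9 CPM in sick libraries and between 546 and 978 CPM in wild-type libraries. Adipocyte markers summed to between 2891 and 3122 CPM in sick libraries and between 1852 and 2546 CPM in wild-type libraries, but of 17 members none rose, 1 fell, 5 had a positive fold change and the median log2 fold change was -0.13. Plin4, a lipid droplet gene also read in muscle fibres, was the most read of them in sick libraries, at 1388, 934 and 663 CPM in sick libraries and 314, 322, 464 and 351 CPM in wild-type libraries, and did not pass (1.41 ± 0.54, adjusted p = 0.0888). Endothelial markers summed to between 1436 and 1747 CPM in sick libraries and between 1343 and 1635 CPM in wild-type libraries (median log2 fold change -0.19) and neutrophil markers to between 5.5 and 23.1 CPM in sick libraries and between 2.73 and 5.48 CPM in wild-type libraries. No lymphocyte marker was read often enough to test, and the summed lymphocyte list reached at most 2.17 CPM in sick libraries and 1.75 CPM in wild-type libraries. The part of cell mixture in the gene results was not tested.

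For the interferon response and antigen presentation list, of 35 members tested, 0 rose and 4 fell (median log2 fold change -0.26). The share that fell was 11.4%, beside 7.49% over all genes. Without sick replicate 2, 1 fell and the median was -0.03. Irgm2, an interferon-induced GTPase, had 3.54, 4.72 and 3.92 CPM in sick libraries, against 14, 10.9, 17.5 and 13.3 CPM in wild-type libraries (-1.80 ± 0.22, adjusted p = 0.00563), and passed in every fit that left out a library. Irf1, a transcription factor of the response, had 6.42, 6.25 and 4.24 CPM in sick libraries, against 9.04, 9.7, 11 and 9.98 CPM in wild-type libraries (-0.83 ± 0.21, adjusted p = 0.0257). Both separated the groups. Of 24 cell cycle genes none rose and 3 fell (12.5%, beside 7.49% over all genes). Ccnd1 (cyclin D1) had 1.96, 2.55 and 3.51 CPM in sick libraries, against 10.2, 9.9, 6.08 and 9.36 CPM in wild-type libraries (-1.73 ± 0.42, adjusted p = 0.0216).

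Some of the firmest single results fell outside these lists and were picked after their values were seen, because they passed in every fit that left out a library. Gng2, a G protein gamma subunit, had 26.1, 25.6 and 20.3 CPM in sick libraries, against 4.55, 4.79, 3.69 and 4.42 CPM in wild-type libraries (2.47 ± 0.15, adjusted p = 2.38e-05). Apod (apolipoprotein D), which carries lipids in nerve and connective tissue, had 161, 179.6 and 116 CPM in sick libraries, against 48.7, 48.8, 54.8 and 45.7 CPM in wild-type libraries (1.60 ± 0.19, adjusted p = 0.00552). Mpp3, a scaffold protein of cell contacts, had 2.01, 6 and 7.02 CPM in sick libraries, against 30.1, 32.7, 40 and 26.8 CPM in wild-type libraries (-3.01 ± 0.34, adjusted p = 0.00534). None of the 3 overlapped between the groups, and sick replicate 4 was not apart from the other sick libraries for Mpp3. Mef2c, a transcription factor of muscle differentiation, had 103, 275 and 311 CPM in sick libraries, against 715, 727, 786 and 572 CPM in wild-type libraries (-1.72 ± 0.32, adjusted p = 0.0113). Map2k6, a kinase that activates p38, had 5.12, 4.97 and 13.9 CPM in sick libraries, against 54.3, 40.9, 52.5 and 30.4 CPM in wild-type libraries (-2.62 ± 0.33, adjusted p = 0.00563).

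Long noncoding RNAs with the lowest p-values have no known role stated in the annotation. Gm44421 had 29, 24.1 and 15.1 CPM in sick libraries, against 3.46, 3.01, 3.91 and 3.71 CPM in wild-type libraries (2.66 ± 0.26, adjusted p = 0.0014). Gm45774 had 4.9, 2.93 and 4.32 CPM in sick libraries, against 0.0541, 0.402, 0.15 and 0.177 CPM in wild-type libraries (4.41 ± 0.58, adjusted p = 0.00566). Lower in sick libraries were 2310015D24Rik, at 2.29, 2.42 and 3.59 CPM, against 24.4, 23.8, 24.5 and 13.1 CPM in wild-type libraries (-2.97 ± 0.39, adjusted p = 0.00566), and 1700052K11Rik, at 2.12, 1.91 and 2.94 CPM, against 7.63, 6.54, 6.91 and 6.98 CPM in wild-type libraries (-1.57 ± 0.20, adjusted p = 0.00563). All 4 separated the groups and passed in every fit that left out a library.

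A few genes were as different in the healthy knock-in quadriceps as in the sick. The healthy libraries share the 4 wild-type libraries with the sick comparison, so the 2 sets of values are not independent. In healthy knock-in against wild-type quadriceps, 5 of 13799 genes passed (0.0362%), and all 5 also passed in the sick comparison. Vcp-rs, annotated as a processed pseudogene of Vcp on chromosome X, had 0.0544, 0.638 and 0.245 CPM in sick libraries, 0 to 0.29 CPM in healthy knock-in libraries and 72.6, 76, 83 and 72.1 CPM in wild-type libraries. Its log2 fold changes were -8.42 ± 0.59 in sick and -8.56 ± 0.52 in healthy libraries. Counts of near-identical copies depend on how reads were assigned, and Vcp itself did not pass in sick libraries (0.18 ± 0.14, adjusted p = 0.377). Galt, which converts galactose for entry into glycolysis, had 16.3, 15.9 and 16 CPM in sick libraries, 12.5 to 19.3 CPM in healthy knock-in libraries and 8.28, 7.52, 8.2 and 7.77 CPM in wild-type libraries (1.02 ± 0.15 in sick, 0.97 ± 0.14 in healthy). Hint2, a mitochondrial nucleotide hydrolase, had 10.5, 14.8 and 9.96 CPM in sick libraries and 6.12, 5.02, 5.61 and 7.07 CPM in wild-type libraries (0.97 ± 0.24 in sick, 1.55 ± 0.21 in healthy). The remaining pair were Gm13305 (-5.19 in sick) and Gm1840 (4.91 in sick), a processed pseudogene for which wild-type replicate 4 had 14.6 CPM and the other wild-type libraries at most 0.649 CPM.

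Galt, Gm13305 and Hint2 lie on chromosome 4 near Gne, 2302 kb, 1895 kb and 404 kb away (window of 5 Mb on each side of Gne, chosen after values were seen). Of 104 genes tested in that window, 23 passed in sick against wild-type quadriceps (22.1%, beside 18.0% over all genes). Gm2564, in the same window, was not read in any sick library and was read 254 times in the 4 wild-type libraries, which is at least 31.1-fold lower in sick libraries against a floor of 3 counts over the group. A chromosome stretch carried along with the edited allele, such as sequence that differs between strains, and an effect of the substitution cannot be told apart for genes in that window. Vcp, of which Vcp-rs is annotated as a pseudogene, lies in the window too, 1069 kb from Gne. Whether reads of Vcp bear on the Vcp-rs counts was not tested.

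The same contrast was set against the other muscles over 15229 genes and all 32 libraries. No gene differed between the sick response of quadriceps and that of gastrocnemius at an adjusted p under 0.05 (0.0% of 15229, limma-voom), while 173 had an unadjusted p under 0.05. Against tibialis, 37 genes (0.243%) differed, all in the positive direction, and 33 of the 37 were too little read in quadriceps to be tested there. The 6 with the lowest p were Umod, Slc12a1, Miox, Slc22a12, Slc5a12 and Hao2, which are kidney tubule genes. They were read in the wild-type tibialis libraries: 15 kidney tubule markers summed to between 68.0 and 90.0 CPM there, against 2.99 to 3.85 CPM in sick and 2.28 to 3.16 CPM in wild-type quadriceps. In the 7 quadriceps libraries the level of Umod was 0 CPM.

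Of the 4 genes tested in quadriceps, Fxyd2 and Napsa, the latter on the kidney tubule marker list, did not pass in quadriceps itself (adjusted p = 0.927 and 0.314). The other two, Csrp3 and Ankrd1, passed in quadriceps. The Csrp3 log2 fold change was 4.42 in quadriceps, -3.85 in tibialis (adjusted p = 0.0157) and 1.95 in gastrocnemius (adjusted p = 0.105), and the difference between quadriceps and tibialis was 8.23 ± 1.40 (adjusted p = 0.00366). For Ankrd1 it was 3.05 in quadriceps, -1.25 in tibialis (adjusted p = 0.284) and 3.50 in gastrocnemius (adjusted p = 0.00113), with a quadriceps to tibialis difference of 4.31 ± 0.88 (adjusted p = 0.0249). The fold changes come from a fit to each muscle's libraries and the differences from the joint fit. The wild-type levels of Csrp3 ran from 52.1 to 231.5 CPM in gastrocnemius and from 74.4 to 721 CPM in tibialis, above those of the first 3 wild-type quadriceps libraries.

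**Figure D5:**
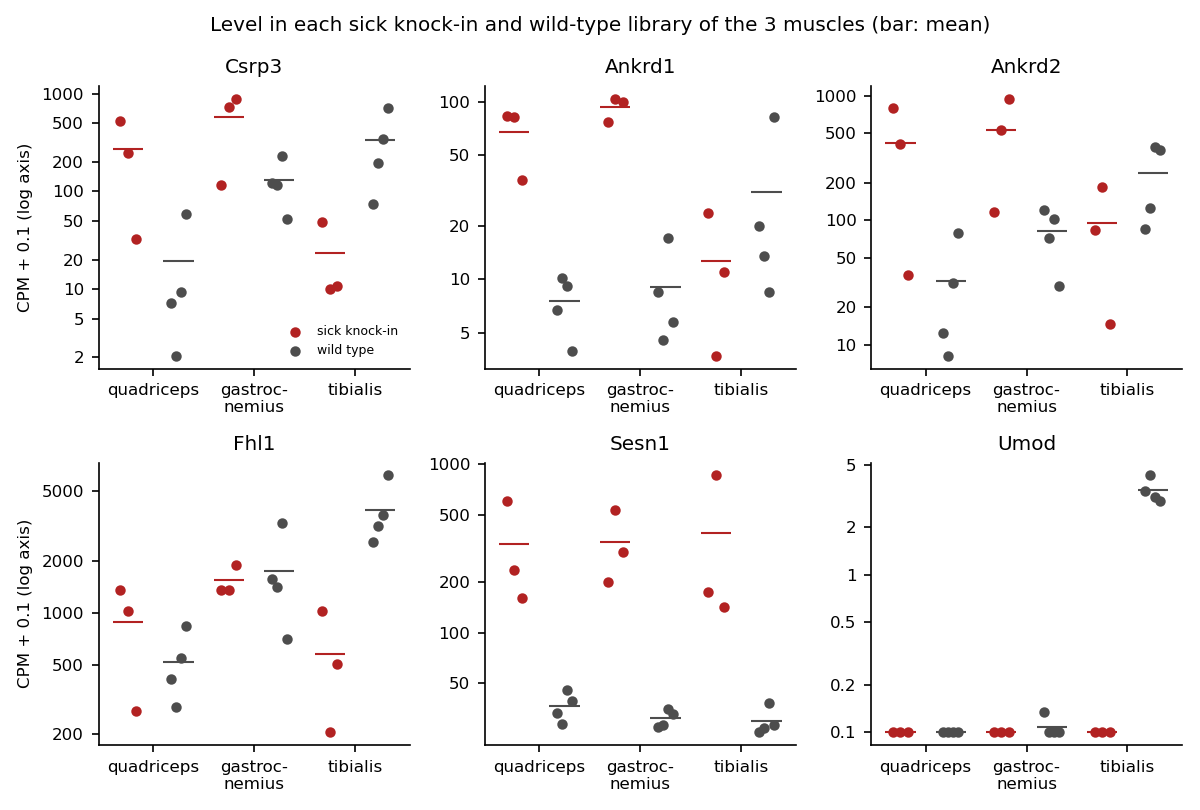
Levels of Csrp3, Ankrd1, Ankrd2, Fhl1, Sesn1 and Umod in every sick and wild-type library of the 3 muscles, in CPM plus 0.1 on a log axis, with quadriceps first and sick libraries left of wild-type libraries; each point is 1 library and each bar a mean. Csrp3 and Ankrd1 have sick values above most or all wild-type values in quadriceps and not in tibialis, Sesn1 has sick values above wild type in all 3 muscles, and Umod is read in wild-type tibialis only apart from 1 gastrocnemius library at 0.03 CPM.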

How the data were processed

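RNA from muscle was sequenced, and the authors deposited a table of raw read counts per gene for 32 libraries, with their normalized values and test results. Per the submitters' processing notes, reads were trimmed with cutadapt 1.18, aligned to GRCm38 with TopHat2 2.1.1, counted with HTSeq 0.6.0 and tested with DESeq2 1.22.1. The counts as deposited were analysed here. Of 54838 genes listed, 6252 carry no count value in the table and were left out, and 32 columns of the authors' normalized values were not used.

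Genes with at least 10 counts in at least 3 quadriceps libraries, scaled to the library size, and 15 in all were tested (13799). Counts were scaled by trimmed means of M-values and tested with limma-voom (limma 3.58.1, R 4.3.3; robust moderation), with 1 mean per state over the 11 quadriceps libraries, so that healthy knock-in libraries share in the estimate of the spread. P-values were adjusted by the Benjamini-Hochberg method over all genes tested, with 0.05 as the threshold. Differences between muscles came from 1 fit over all 32 libraries. CPM are a library's counts brought to 1 shared scaled total. A count test such as edgeR was planned as an alternative only if the columns held nothing but counts, and was not run because of the genes without a value. The script was tested on simulated data. Replicate pairs of a state differed by more than sampling noise, with a chi-square per gene between 13.3 and 149, so no library was counted 2 times.

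Genes were named by fold change, level and lowest p within each list, among those past the threshold: the 12 highest and 12 lowest fold changes without overlap of the groups, the 8 with most counts in each direction, up to 5 per list, 6 per difference between muscles and 4 long noncoding RNAs. Of these, 2 genes are not reported here. The lists, the rule and the tests were chosen with earlier results of these data known. Promoter windows and transcript starts came from RefSeq (GRCm38.p6), and genes on chromosome 18 were left out of them. Alternatives covered the scaling, the filter, the libraries in the fit, the weights, the moderation, a replicate block and leaving out each library.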

Additional observations from a re-analysis of the deposited data

Results flagged for a closer look

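In 19 of 181 genes named in the text, 1 of the 4 wild-type libraries stood apart from the other 3, and chance alone sets a library apart in about 1 of 20 groups. Wild-type replicate 4 was that library for 14 of them. It was the highest for Ddit4 (166.0 CPM, against 6.68 to 23.4 CPM in the others), Cebpd (75.5, against 6.81 to 14.2 CPM), Csrp3 (59.1, against 2.01 to 9.37 CPM), Tsc22d3 (474, against 305 to 315 CPM), Zfp36 (22, against 7.13 to 9.58 CPM), Gabarap (112, against 89.2 to 91.7 CPM), Eef2 (1482, against 1210.2 to 1251 CPM), Gm1840 (14.6, against 0.548 to 0.649 CPM), Mrgprg (0.265, against 0 to 0.0287 CPM) and P4ha1 (151, against 61.0 to 66.3 CPM). It was the lowest for Col15a1 (63.5, against 119 to 126 CPM), Kera (27.3, against 63.0 to 67.6 CPM), Ccng1 (1212, against 1589 to 1644 CPM) and 2310015D24Rik (13.1, against 23.8 to 24.5 CPM). For all of these except P4ha1 its value lay on the side of the sick libraries. The other libraries that stood apart were wild-type replicate 1 for Alas2 (2.44, against 5.62 to 6.21 CPM), Dnm1l (86.4, against 91.5 to 91.9 CPM) and Myot (1046, against 1316 to 1369 CPM), replicate 2 for Fbp2 (27.9, against 13.2 to 14.9 CPM) and replicate 3 for Chil3 (0.0997, against 0 CPM). The cause was not tested.

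The sick response of quadriceps differed from that of tibialis, by an interaction term, for the genes named above. The difference on the log2 scale was 8.23 for Csrp3 and 4.31 for Ankrd1, which passed in quadriceps, and 3.94 for Napsa and 2.66 for Fxyd2, which did not. Napsa is itself on the list of kidney tubule markers. For the 6 kidney tubule genes with the lowest p the difference was 7.91 for Umod, 8.63 for Slc12a1, 8.86 for Miox, 6.89 for Slc22a12, 7.19 for Slc5a12 and 7.7 for Hao2. Summed kidney marker levels of 68.0 to 90.0 CPM were found in all 4 wild-type tibialis libraries and 28.2 CPM in 1 healthy knock-in gastrocnemius library, and were at most 4.86 CPM in any quadriceps library. Their part in the difference was not tested beyond these levels.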

How the results depend on the processing

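The count of 2488 genes kept its order of size under median-of-ratios scaling (2488, with 1402 higher and 1086 lower), a stricter filter (2483), no robust moderation (2541), limma-trend (2131), all 32 libraries (2401) and sick and wild-type libraries alone (1965), and it was 1744 with no filter and 4159 with library quality weights. Leaving out 1 library gave 81 to 4219 genes, the lowest without sick replicate 2, which is both fewer libraries and the loss of the library farthest from wild type. None of the 2488 genes, selected in the same libraries, changed sign in these fits. Of the 170 named genes that passed, 25 of 166 still tested passed without sick replicate 2, 83 of 167 without sick replicate 3 and 165 of 169 without sick replicate 4. Fxyd2, which did not pass, changed sign with library quality weights (-0.00835), under the replicate block (-0.0284) and when 1 library was left out (-0.189 to 0.282 over these fits). Mcpt4, which did not pass either, also changed sign with library quality weights (0.142), with limma-trend (0.104), under the replicate block (0.251) and when 1 library was left out (-0.58 to 0.867).

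The labels do not say whether the replicate numbers pair the samples. Deviations of same-numbered sick and wild-type libraries correlated at -0.128, 0.0140 and -0.0810 over genes, and those of unlike-numbered libraries at -0.0736 to 0.128. So few pairs show no sign of a pairing but cannot exclude one. With the replicate block 2 genes passed (1 higher, 1 lower), with few residual degrees of freedom left among 7 libraries, and 2198 of 2477 tested genes kept their sign at an unadjusted p under 0.05.

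Against gastrocnemius no gene passed in any alternative (0 with limma-voom; 172 to 748 at an unadjusted p under 0.05). Against tibialis 37 passed under both scalings, 77 with no filter and 20 to 34 with 1 library left out. For healthy knock-in against wild type, alternatives added after the data were seen gave 9 genes over all 32 libraries, 30 with quality weights, 3 with limma-trend, 4 with the stricter filter, 6 with no filter and 2 to 13 with 1 library left out. EdgeR and DESeq2, planned for columns of counts alone, were not run. The 3 sick libraries and totals as low as 8054029 counts limit the genes read a few times.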

Other observations

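In the authors' deposited table, 2360 of 25204 genes with an adjusted p were under 0.05 for sick against wild-type quadriceps. Of these, 1881 also passed here, all in the same direction, and 607 genes that passed here did not pass in the authors' deposited table.

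Red blood cell markers split. Of 9 tested, Alas2, the first enzyme of heme synthesis in red cells, had 22.8, 36.6 and 6.69 CPM in sick libraries, against 2.44, 5.62, 6.21 and 6.18 CPM in wild-type libraries (log2 fold change 1.79 ± 0.55, adjusted p = 0.0452). Bpgm, which makes the phosphate that loosens oxygen from hemoglobin, had 20.4, 28.2 and 70.2 CPM in sick libraries, against 95.6, 83.6, 86.3 and 84 CPM in wild-type libraries (-1.35 ± 0.32, adjusted p = 0.0199), and Tfrc, the transferrin receptor, fell as well, with overlapping groups (-2.06 ± 0.62, adjusted p = 0.0441). The summed level of the list was between 488 and 658 CPM in sick libraries and between 502 and 615 CPM in wild-type libraries. Smooth muscle and pericyte markers summed to between 6148 and 6741 CPM in sick libraries and between 4751 and 5011 CPM in wild-type libraries. Most of that sum was Des (desmin), which muscle fibres also express and which had 5273, 5809 and 5554 CPM in sick libraries and 3801, 3635, 3538 and 3801 CPM in wild-type libraries without passing (0.59 ± 0.25, adjusted p = 0.119). Of 15 members tested, 2 had a positive fold change and the median log2 fold change was -0.30. Rgs5, a pericyte gene, fell (-0.62 ± 0.14, adjusted p = 0.017).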
